A study of Mus musculus with 6 samples.

Results

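Arterial smooth muscle sets its tone through ion channels, and 10 genes of these channels were read in RNA of whole mouse aorta. They are Kcnma1, Kcnmb1, Kcnj8, Abcc9 and Kcna5 of potassium channels, Cacna1c and Cacna1h of voltage-gated calcium channels, Trpc1 and Trpc6 of cation channels, and Itpr1, a calcium release channel. They were chosen by symbol as potassium, calcium and TRP channels of arterial smooth muscle, and each matched 1 of the 55335 rows of the count table. Of the 10 genes, 9 were among the 16612 genes abundant enough to be tested, and Trpc6 was not. Aorta of young mice aged 6 weeks and of aged mice aged 6 months gave 3 libraries each. All mice were wild-type C57BL/6 (written c57b6l in the labels), with no treatment named. The methods of the study call the mice male and say that the fat around the vessel was dissected away. The libraries held 31049632 to 45832185 counted reads, and the tested channel genes had between 432 (Kcna5) and 55365 (Abcc9) counts over all 6. The labels name 3 replicates per age, 1 library each, and do not say whether a replicate is 1 mouse. The methods say that vessel was collected from each mouse. The p-values measure the spread between these libraries.

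Contraction of a vascular smooth muscle cell starts with a rise of calcium in the cytosol. Calcium enters through voltage-gated channels that open when the membrane depolarises, and it is released from the sarcoplasmic reticulum through receptors for inositol trisphosphate. Potassium channels oppose this: potassium leaving the cell hyperpolarises the membrane and closes the calcium channels. The aorta is a large elastic artery, whose muscle has channels of these kinds, alongside endothelium and an outer layer of fibroblasts. The small arteries that set blood pressure were not measured here.

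The defining genes of smooth muscle were abundant in every library. The 14 smooth muscle markers, led by Acta2 and Myl9, summed to 40381 to 50294 CPM in young and 35836 to 43187 CPM in aged libraries, where CPM is the count relative to library size after TMM, a scaling that sets the bulk of genes level between libraries. Of the 14, 13 had lower and 1 had higher estimates in aged aorta (median log2 fold change -0.19), and 5 of the lower ones had an unadjusted p under 0.05, as had 4.82% of all genes tested. In a whole tissue, fewer smooth muscle cells and less RNA of a gene per cell cannot be told apart. Several libraries stood apart. Young replicate 1 held Xist, the RNA of the silenced X chromosome of female cells, at 305.6 CPM against 0.204 to 0.636 in the other 5, and the Y-linked Ddx3y at 1.09 CPM against 44.8 to 65.6, which goes against the stated sex. It also held 365 CPM over 8 cardiac muscle markers against 50.6 to 74.7 elsewhere. Aged replicate 2 lay among the young libraries on the first principal component, at -23.5 against 43.6 and 38.2 for aged replicates 1 and 3 and -26.2 to -13.1 for the young libraries. Aged replicate 3 held 1757 CPM of endothelial markers against 370 to 528 in the others. Genes of the mitochondrial genome took 14.9% to 21.2% of the counts in young and 23.1% to 30.4% in aged libraries, without overlap, and the part of this share in the results was not tested beyond leaving these genes out of the scaling, which called 0 genes.

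At an adjusted p under 0.05 by edgeR (quasi-likelihood F test, Benjamini-Hochberg adjustment, as for every adjusted p by edgeR given here), 0 of 16612 genes were called (0%), the lowest adjusted p being 0.189, and 0 of the 9 tested channel genes were called. At an unadjusted p under 0.05, 800 genes were lower (4.82%) and 923 were higher (5.56%) in aged aorta. Among the channel genes, 1 (Kcnma1) was lower and 0 were higher at that level. DESeq2 called 334 genes (2.01%) and 0 of the channel genes. The CPM of the groups did not overlap for 1458 genes with lower values (8.78%) and 1286 genes with higher values (7.74%) in aged aorta, and for 1 channel gene each way, Kcnmb1 and Kcnj8. The median log2 fold change was -0.07 over the 9 channel genes (4 higher, 5 lower) and 0.02 over all genes tested.

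**Figure D1:**
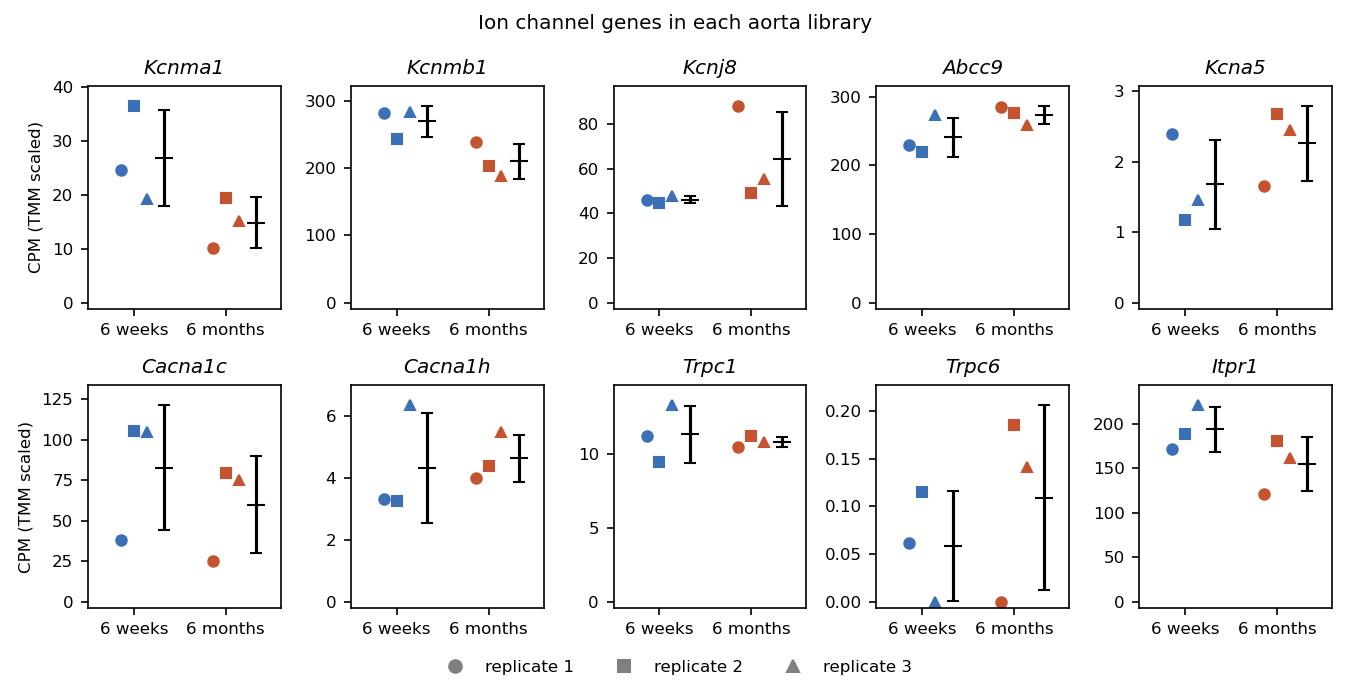
CPM of each of the 10 channel genes in each library, 6 weeks in blue and 6 months in orange, with the replicate number as the symbol. The bar beside each group is the mean and SD of 3 libraries. Kcnmb1 is lower in all 3 aged libraries than in any young one, and Kcnj8 is higher, led by aged replicate 1 at 88.2 CPM.

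Per length of exon, the channel genes spanned a wide range of levels. The CPM of each gene was divided by its total length of annotated exon in kb (GENCODE M21, GRCm38), which makes levels comparable between genes. Kcnmb1, the beta subunit of the large-conductance channel, stood first at 57.1 CPM per kb over the 6 libraries, above Abcc9 at 30.7 in every library with no overlap of their ranges. Kcnj8 followed at 21.7, and the order of Abcc9 and Kcnj8 held in 5 of 6 libraries. Itpr1 was next at 9.51 and Cacna1c at 3.37, both without overlap with the gene above. The genes behind these were 1.38 for Trpc1, 1.23 for Kcnma1, 0.687 for Kcna5 and 0.458 for Cacna1h, all in CPM per kb. Each of these overlapped in range with the gene next to it in the order, although Kcnma1 was above Kcna5 in all 6 libraries. Trpc1, at 1.18 to 1.66 CPM per kb, did not overlap with Kcna5 (0.412 to 0.935) or Cacna1h (0.333 to 0.651). Trpc6 closed the list at 0.0166, below Cacna1h in all 6 libraries. Genes with many alternative exons are understated on this scale, since all exons of Kcnma1 span 16976 bases and its longest transcript 12094. With the longest transcript as the length, the order of the means was the same, with Itpr1 at 17.6, Cacna1c at 5.42, Trpc1 at 2.43 and Kcnma1 at 1.73 CPM per kb.

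**Figure D2:**
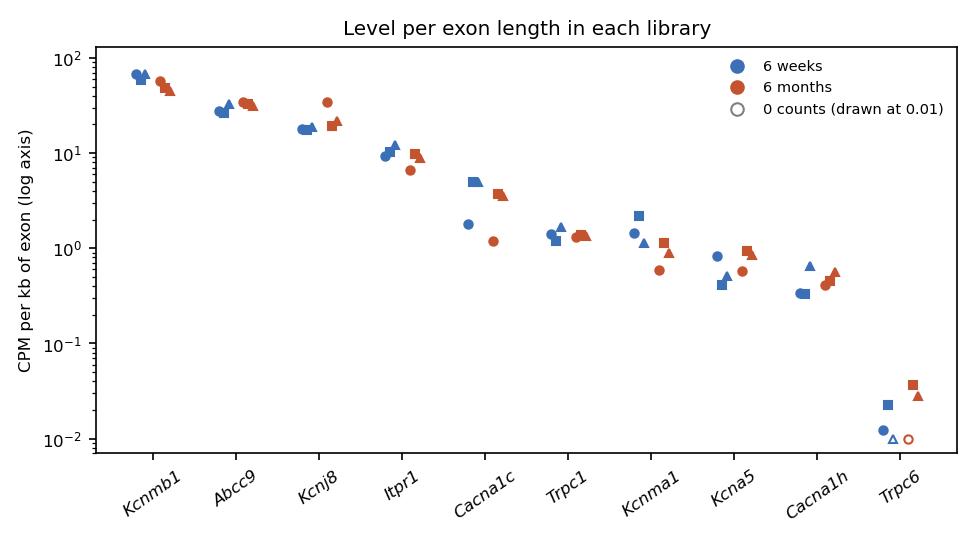
CPM per kb of exon of each channel gene in each of the 6 libraries, on a log axis, ordered by the mean, with 6 weeks in blue and 6 months in orange. Libraries without a count of Trpc6 are open symbols drawn at 0.01. The genes run from Kcnmb1 at 57.1 to Trpc6 at 0.0166.

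Kcnma1 encodes the pore of the large-conductance calcium-activated potassium channel (BK), which opens on depolarisation and on local calcium release and so limits contraction. The gene lies on the minus strand of chromosome 14 from 23289431 to 24014491 (GRCm38). In young aorta it was at 24.7, 36.6 and 19.3 CPM in replicates 1, 2 and 3. In aged aorta it was at 10.1, 19.5 and 15.1 CPM. The groups touched only between young replicate 3 and aged replicate 2, and young replicate 2 was the highest library. The means were 26.9 ± 8.87 CPM (SD, n = 3) in young and 14.9 ± 4.68 CPM (SD, n = 3) in aged aorta, so the aged level was 55.5% of the young one. Strand was not stated for the counting, and 5.98% of its exon bases overlap exons of 4930519K11Rik on the other strand, which had 44 counts against 4630 for Kcnma1. The log2 fold change was -0.85 (SE 0.318, 95% interval -1.60 to -0.10), with an unadjusted p of 0.0308 and an adjusted p of 0.443 by edgeR (quasi-likelihood F test, Benjamini-Hochberg). It had the lowest p of the channel genes but ranked 1153rd among all genes, so it did not pass. With 1 library left out at a time the log2 fold change lay between -1.09 (without aged replicate 2) and -0.55 (without young replicate 2, its highest library, unadjusted p 0.133 by edgeR).

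Kcnmb1 encodes the beta1 subunit of the same channel, which is found mainly in smooth muscle and raises the channel's sensitivity to calcium. It lies on the plus strand of chromosome 11 from 33963013 to 33973641. Its levels were 281, 243 and 284 CPM in young replicates 1, 2 and 3, and 238, 203 and 188 CPM in aged replicates 1, 2 and 3. All 3 aged libraries were below all 3 young ones, the closest pair being young replicate 2 and aged replicate 1. The means were 269 ± 23.1 (SD, n = 3) and 210 ± 25.6 CPM (SD, n = 3), the aged level being 77.9% of the young one. The log2 fold change was -0.36 (SE 0.162, 95% interval -0.74 to 0.02), with an adjusted p of 0.501 by edgeR (quasi-likelihood F test, Benjamini-Hochberg). Kcnmb1 also held 8442 to 13637 counts in the young libraries. Its CV of 8.58% among these libraries was well above the 1.37% that counting alone gives at its lowest count. With 1 library left out its log2 fold change lay between -0.46 and -0.29.

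The start regions of both BK genes are printed because the products assemble in 1 channel while the base composition of the regions differs. The sequences come from RefSeq (GRCm38.p6), run 5′ to 3′ on the gene's strand from 250 bases before to 50 after the annotated start, and capitals mark GGGCGG on either strand, a GC box.
Kcnma1 (chr14:24004156-24004455, minus strand): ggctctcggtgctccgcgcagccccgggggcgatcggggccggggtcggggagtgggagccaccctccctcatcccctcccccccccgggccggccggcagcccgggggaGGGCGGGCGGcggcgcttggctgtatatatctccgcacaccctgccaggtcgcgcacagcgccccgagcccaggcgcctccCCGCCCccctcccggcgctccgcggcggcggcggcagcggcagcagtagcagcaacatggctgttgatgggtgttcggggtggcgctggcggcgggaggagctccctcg
Kcnmb1 (chr11:33962763-33963062, plus strand): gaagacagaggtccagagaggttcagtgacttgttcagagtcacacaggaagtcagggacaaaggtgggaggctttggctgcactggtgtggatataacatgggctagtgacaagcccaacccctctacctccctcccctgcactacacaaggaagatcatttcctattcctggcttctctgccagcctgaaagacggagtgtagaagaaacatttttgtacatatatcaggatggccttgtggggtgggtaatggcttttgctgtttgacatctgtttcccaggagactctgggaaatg
The Kcnma1 window had 78.0% G and C, 36 CG dinucleotides and 3 matches to GGGCGG, of which 2 overlap. It belongs to a RefSeq start inside the GENCODE locus of Kcnma1, whose upstream end is at 24014491. The gene has 38 annotated transcripts, so the window does not stand for all of its starts. The Kcnmb1 window had 49.7% G and C, 1 CG dinucleotide and 0 matches. Over 32851 promoter windows of the same length, the medians were 52.7% G and C and 7 CG dinucleotides, and 35.7% held GGGCGG. Neither window held TATAAA, which 13.6% of windows held on either strand.

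Kcnj8 encodes Kir6.1, the pore of the vascular ATP-sensitive potassium channel, and Abcc9 encodes SUR2, its sulphonylurea receptor subunit, through which nucleotides and openers act. The genes are neighbours on the minus strand of chromosome 6, Kcnj8 from 142564837 to 142571614 and Abcc9 from 142587862 to 142702315, with 16247 bases between them. Kcnj8 was at 45.9, 44.5 and 47.9 CPM in young replicates 1, 2 and 3, a spread of 3.69% (CV). It was at 88.2, 49.3 and 55.2 CPM in aged replicates 1, 2 and 3. All aged libraries were above all young ones, but aged replicate 2 exceeded young replicate 3 by little and aged replicate 1 stood well above the rest. The means were 46.1 ± 1.70 (SD, n = 3) and 64.2 ± 20.97 CPM (SD, n = 3), a log2 fold change of 0.48 (SE 0.234, 95% interval -0.07 to 1.03) with an adjusted p of 0.529 by edgeR (quasi-likelihood F test, Benjamini-Hochberg). Without aged replicate 1 the log2 fold change was 0.18, and without aged replicate 2 it was 0.64.

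Abcc9 was at 229, 220 and 273 CPM in young and 286, 276 and 259 CPM in aged replicates 1, 2 and 3. Young replicate 3 lay within the aged range, so the groups overlapped. The means were 241 ± 28.4 (SD, n = 3) and 274 ± 13.2 CPM (SD, n = 3), with a log2 fold change of 0.18 (SE 0.154, 95% interval -0.18 to 0.55) and an adjusted p of 0.686 by edgeR (quasi-likelihood F test, Benjamini-Hochberg). With 1 library left out the log2 fold change of Abcc9 lay between 0.13 and 0.29, the highest without young replicate 3. Both genes are also known for their expression in pericytes, and the 6 pericyte markers, led by Rgs5 and Pdgfrb, summed to 1579 to 1730 CPM in young and 1310 to 1539 CPM in aged libraries. The start regions of this pair are shown as the neighbouring genes whose products assemble, in the same way as above.
Kcnj8 (chr6:142571565-142571864, minus strand): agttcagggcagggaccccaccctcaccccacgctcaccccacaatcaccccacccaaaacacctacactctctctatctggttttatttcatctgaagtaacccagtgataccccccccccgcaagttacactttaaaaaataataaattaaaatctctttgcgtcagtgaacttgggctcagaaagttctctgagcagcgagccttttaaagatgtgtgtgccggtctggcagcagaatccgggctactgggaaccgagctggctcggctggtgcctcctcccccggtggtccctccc
Abcc9 (chr6:142702225-142702524, minus strand): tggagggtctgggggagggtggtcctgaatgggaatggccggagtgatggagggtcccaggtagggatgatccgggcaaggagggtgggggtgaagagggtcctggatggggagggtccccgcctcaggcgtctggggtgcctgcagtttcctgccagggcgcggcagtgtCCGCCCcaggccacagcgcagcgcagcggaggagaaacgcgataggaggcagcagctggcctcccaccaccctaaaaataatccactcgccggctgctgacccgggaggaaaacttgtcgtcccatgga
The Kcnj8 window had 53.3% G and C, 9 CG dinucleotides and 0 matches to GGGCGG. The Abcc9 window had 65.7% G and C, 16 CG dinucleotides and 1 match. The genes of ATP-sensitive channels in other tissues were at low counts. Kcnj11 (Kir6.2) was at 3.62 ± 0.723 CPM in young and 2.14 ± 0.773 in aged aorta (SD, n = 3). Abcc8 (SUR1) was under 1.5 CPM in every library, with 0 counts in young replicate 2 and at most 50 in a library.

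Kcna5 encodes Kv1.5, a voltage-gated potassium channel of arterial muscle. It lies on the minus strand of chromosome 6 from 126532551 to 126535412. It was low, at 2.39, 1.18 and 1.46 CPM in young and 1.65, 2.68 and 2.44 CPM in aged replicates 1, 2 and 3, with between 41 and 116 counts in a library. The groups overlapped, young replicate 1 being above aged replicate 1. The means were 1.68 ± 0.64 (SD, n = 3) and 2.26 ± 0.54 CPM (SD, n = 3). The log2 fold change was 0.43 (SE 0.410, 95% interval -0.54 to 1.39) with an adjusted p of 0.727 by edgeR (quasi-likelihood F test, Benjamini-Hochberg). It was 0.24 without young replicate 2, 0.28 without aged replicate 2 and 0.79 without young replicate 1. Young replicate 1, the highest young library for Kcna5, held 365 CPM of cardiac markers. The part of heart tissue in its value was not tested.

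**Figure D3:**
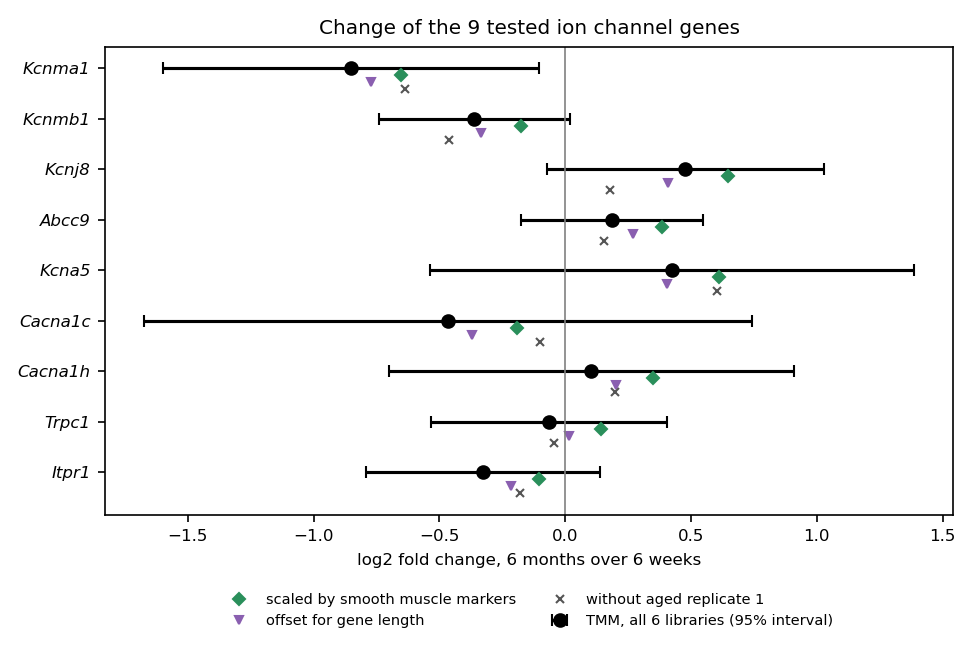
Log2 fold change, 6 months over 6 weeks, of the 9 tested channel genes. Black points with bars are the edgeR estimates and 95% intervals from all 6 libraries, green diamonds the estimates after scaling each library to its smooth muscle markers, purple triangles those with an offset for gene length, and crosses those without aged replicate 1. The interval of Kcnma1, -1.60 to -0.10, is the one that leaves out 0.

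Cacna1c encodes the pore of the L-type calcium channel, Cav1.2, the main route of calcium entry in arterial muscle. It lies on the minus strand of chromosome 6 from 118587240 to 119196418. It was at 38.1, 105 and 104.7 CPM in young and 25.4, 79.2 and 75.2 CPM in aged replicates 1, 2 and 3. Replicate 1 of each group was low, well below both of its fellows. The means were 82.8 ± 38.6 (SD, n = 3) and 59.9 ± 30.002 CPM (SD, n = 3), with a log2 fold change of -0.47 (SE 0.515, 95% interval -1.67 to 0.74) and an adjusted p of 0.764 by edgeR (quasi-likelihood F test, Benjamini-Hochberg). The spread within a group, 46.7% in young and 50.1% in aged (CV), was the largest of the 9 tested genes and far above the 3.44% that counting gives at its lowest count. Its log2 fold change was -0.80 without young replicate 1 and -0.10 without aged replicate 1, so a single library moved the value widely.

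Cacna1h encodes Cav3.2, a T-type calcium channel that opens at more negative potentials and is coupled to BK channels in some arteries. It lies on the minus strand of chromosome 17 from 25374285 to 25433783. Its levels were 3.32, 3.25 and 6.35 CPM in young and 4.002, 4.3997 and 5.49 CPM in aged replicates 1, 2 and 3, with young replicate 3 highest of all. The means were 4.31 ± 1.77 (SD, n = 3) and 4.63 ± 0.77 CPM (SD, n = 3), a log2 fold change of 0.10 (SE 0.343, 95% interval -0.70 to 0.91) with an adjusted p of 0.930 by edgeR (quasi-likelihood F test, Benjamini-Hochberg). Its sign changed with the library left out, from -0.052 without young replicate 2 to 0.50 without young replicate 3.

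Trpc1 and Trpc6 encode canonical transient receptor potential channels, which let sodium and calcium in after receptor stimulation. Trpc1 lies on the minus strand of chromosome 9 from 95705082 to 95750375, and Trpc6 on the plus strand of the same chromosome from 8544142 to 8680741. Trpc1 was at 11.2, 9.46 and 13.3 CPM in young and 10.5, 11.2 and 10.8 CPM in aged replicates 1, 2 and 3, the aged range lying inside the young one. The means were 11.3 ± 1.93 (SD, n = 3) and 10.8 ± 0.34 CPM (SD, n = 3), a log2 fold change of -0.07 (SE 0.2003, 95% interval -0.54 to 0.40) with an adjusted p of 0.924 by edgeR (quasi-likelihood F test, Benjamini-Hochberg). Without young replicate 3 the log2 fold change of Trpc1 was 0.075. Trpc6 had 3, 4 and 0 counts in young and 0, 7 and 4 counts in aged replicates 1, 2 and 3, 18 in all. A count of 0 allows up to 3 counts, 0.0874 CPM in young replicate 3 and 0.0903 CPM in aged replicate 1, so no difference could be detected at this depth and no fold change is given. This limit covers counting error only.

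The start region of Trpc6 is printed because it was the member promoter with a CArG box, the site that serum response factor and its smooth muscle coactivators recognise, in capitals here and searched on both strands.
Trpc6 (chr9:8543892-8544191, plus strand): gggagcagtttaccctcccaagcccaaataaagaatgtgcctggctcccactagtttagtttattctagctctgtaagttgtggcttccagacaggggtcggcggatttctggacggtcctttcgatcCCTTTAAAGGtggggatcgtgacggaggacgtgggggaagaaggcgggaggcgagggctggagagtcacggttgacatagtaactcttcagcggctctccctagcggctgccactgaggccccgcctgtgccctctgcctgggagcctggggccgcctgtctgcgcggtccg
The match begins 122 bases before the start. Of the members, 8 had a promoter in the table, with 10 promoters in all since Cacna1c had 3, and 1 of these 10 held the box against 1.63% of all 32851 windows. The members without an entry were Cacna1h and Itpr1. Trpc1, at a higher level per length of exon, had no CArG box in its window but 3 matches to GGGCGG.

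Itpr1 encodes the type 1 receptor for inositol trisphosphate, which releases calcium from the sarcoplasmic reticulum. It lies on the plus strand of chromosome 6 from 108213096 to 108551109. Its levels were 172, 188 and 221 CPM in young and 121, 181 and 161 CPM in aged replicates 1, 2 and 3. Aged replicates 1 and 3 were below all young libraries, and aged replicate 2 was within the young range. The means were 194 ± 24.9 (SD, n = 3) and 155 ± 30.3 CPM (SD, n = 3), a log2 fold change of -0.33 (SE 0.198, 95% interval -0.79 to 0.14) with an adjusted p of 0.591 by edgeR (quasi-likelihood F test, Benjamini-Hochberg). It was -0.18 without aged replicate 1, -0.21 without young replicate 3 and -0.45 without aged replicate 2. The genes of the other receptor types, Itpr2 and Itpr3, had higher means in aged aorta. Itpr2 was at 16.8 ± 7.54 CPM in young and 29.0 ± 12.2 in aged aorta (SD, n = 3). Itpr3 was at 11.01 ± 2.26 and 22.0 ± 19.3 CPM (SD, n = 3), its aged mean resting on aged replicate 3 at 44.0 CPM, the library with the high endothelial markers. Mrvi1, whose product holds the receptor under the control of cGMP signalling, was at 413 ± 44.6 CPM in young and 299 ± 99.1 in aged aorta (SD, n = 3). The groups overlapped for each of these 3 genes.

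Ratios of subunits that share a channel or a pathway were taken within each library from FPKM, the authors' length-scaled values, so that library scaling does not enter. The ratio of Kcnmb1 to Kcnma1 was 46.1, 26.9 and 59.7 in young and 96.1, 42.4 and 50.6 in aged replicates 1, 2 and 3, a difference of 0.49 in mean log2 ratio. That of Abcc9 to Kcnj8 was 1.53, 1.51 and 1.74 against 0.990, 1.71 and 1.44, a difference of -0.24. That of Cacna1h to Cacna1c was 0.188, 0.0657 and 0.131 against 0.341, 0.1197 and 0.156, a difference of 0.66. In each of these the groups overlapped, and aged replicate 1 had the extreme value. Without it the differences were 0.14, -0.019 and 0.22 in the same order. The ratio of Itpr1 to the sum of Itpr2 and Itpr3 was 5.33, 3.21 and 5.76 in young and 2.53, 3.28 and 1.16 in aged libraries, a difference of -1.12, lowest in aged replicate 3 and -0.68 without it. The exact two-sided permutation test gave p = 0.5, 0.4, 0.5 and 0.2 for these 4 ratios in turn, and 0.5 for each after Benjamini-Hochberg adjustment over the 4, a design of 3 against 3 that cannot give a p below 0.1. With CPM in place of FPKM the same test gave unadjusted p = 0.5, 0.4, 0.5 and 0.1 in turn. The last was for a difference of -1.13 in the Itpr1 ratio. The ratio of Trpc6 to Trpc1 was not tested because Trpc6 was at 0 in 2 libraries.

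Around these 10 genes, 79 other genes of channels and calcium handling were matched, and 61 were tested. At an adjusted p under 0.05, 0 of the 61 were called by edgeR and 1 by DESeq2, and 29 were higher and 32 lower, with a median log2 fold change of -0.12. At an unadjusted p under 0.05, 4 were higher (5.56% over all genes tested) and 9 were lower (4.82% over all genes tested). The values of the groups did not overlap for 4 higher and 12 lower genes of the 61, beside 7.74% and 8.78% of all genes tested.

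Among other potassium channels, 19 of 25 genes were tested, 1 higher and 5 lower at an unadjusted p under 0.05. The most abundant by FPKM was Kcnh2, which encodes a delayed rectifier (ERG1). It was at 118, 136 and 128 CPM in young and 83.7, 66.0 and 78.5 CPM in aged replicates 1, 2 and 3, all aged libraries being below all young ones. Its log2 fold change was -0.75 (SE 0.157), with an adjusted p of 0.360 by edgeR's quasi-likelihood test and 0.00702 by DESeq2 (Benjamini-Hochberg in both). Kcnab1, an accessory subunit of Kv1 channels, was at 83.2 ± 8.27 and 55.3 ± 13.2 CPM (SD, n = 3), a log2 fold change of -0.59. Kcnc4 and Kcnq5 were lower by 0.69 and 0.66 on the log2 scale, and Kcnab2, at 1.14 and 2.33 CPM, was higher by 1.03. Of the 19 genes, 1 higher and 6 lower had groups that did not overlap, beside 7.74% and 8.78% of all genes tested. These included Kcnh2, Kcnab1, Kcnc4, Kcnq5 and Kcnab2. Kcnj11 was also lower without overlap, by a narrow margin (2.85 CPM in young replicate 1 and 2.84 in aged replicate 2).

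Among other calcium channel subunits, 9 of 11 genes were tested and 2 were higher at an unadjusted p under 0.05. These were Cacnb4 (1.96 ± 0.370 and 3.44 ± 0.504 CPM, SD, n = 3, log2 fold change 0.81) and Cacna2d2, which was under 1.4 CPM in every library. The most abundant subunits were Cacnb3 (56.4 ± 9.82 and 44.9 ± 9.72 CPM, SD, n = 3) and Cacna2d1 (88.9 ± 26.5 and 75.4 ± 46.7 CPM, SD, n = 3), accessory subunits of the same channels as Cacna1c, and their groups overlapped.

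Among other TRP and cation channels, 13 of 20 genes were tested and 4 were without a count in any library. Trpm4, a calcium-activated monovalent cation channel, was at 40.2, 43.6 and 59.7 CPM in young and 30.96, 29.8 and 33.3 CPM in aged replicates 1, 2 and 3, lower in all aged libraries, with a log2 fold change of -0.61. Trpv4, a channel of endothelium and muscle opened by stretch and heat, was at 3.49, 6.95 and 6.26 CPM in young and 8.09, 10.2 and 34.1 CPM in aged replicates, with a log2 fold change of 1.65. Its highest value stood in aged replicate 3, which also had the 1757 CPM of endothelial markers, and the part of endothelium in that value was not tested. Pkd1 (495 ± 143 and 413 ± 49.2 CPM, SD, n = 3) and Orai3 (31.7 ± 4.27 and 35.4 ± 3.29 CPM, SD, n = 3) overlapped between groups.

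Among genes of calcium release and handling, 15 of 17 were tested and 3 were lower at an unadjusted p under 0.05. Atp2a2, the pump that returns calcium to the sarcoplasmic reticulum, was at 602 ± 82.8 and 456 ± 17.5 CPM (SD, n = 3), a log2 fold change of -0.40. Atp2b4, a pump of the plasma membrane, was at 307 ± 65.6 and 201 ± 32.7 CPM (SD, n = 3), a log2 fold change of -0.61. Slc8a1, the sodium-calcium exchanger, was at 92.4, 66.2 and 50.2 CPM in young and 12.4, 46.3 and 19.1 CPM in aged replicates 1, 2 and 3, a log2 fold change of -1.42. The highest value was in young replicate 1, the library with 365 CPM of cardiac markers, and the part of heart tissue in it was not tested. Calm2, which encodes calmodulin, had overlapping groups. Of 6 chloride channel genes, 5 were tested and 0 passed at an unadjusted p under 0.05, Ano1 (124 ± 43.7 and 108 ± 34.3 CPM, SD, n = 3) and Lrrc8a being the most abundant.

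**Figure D4:**
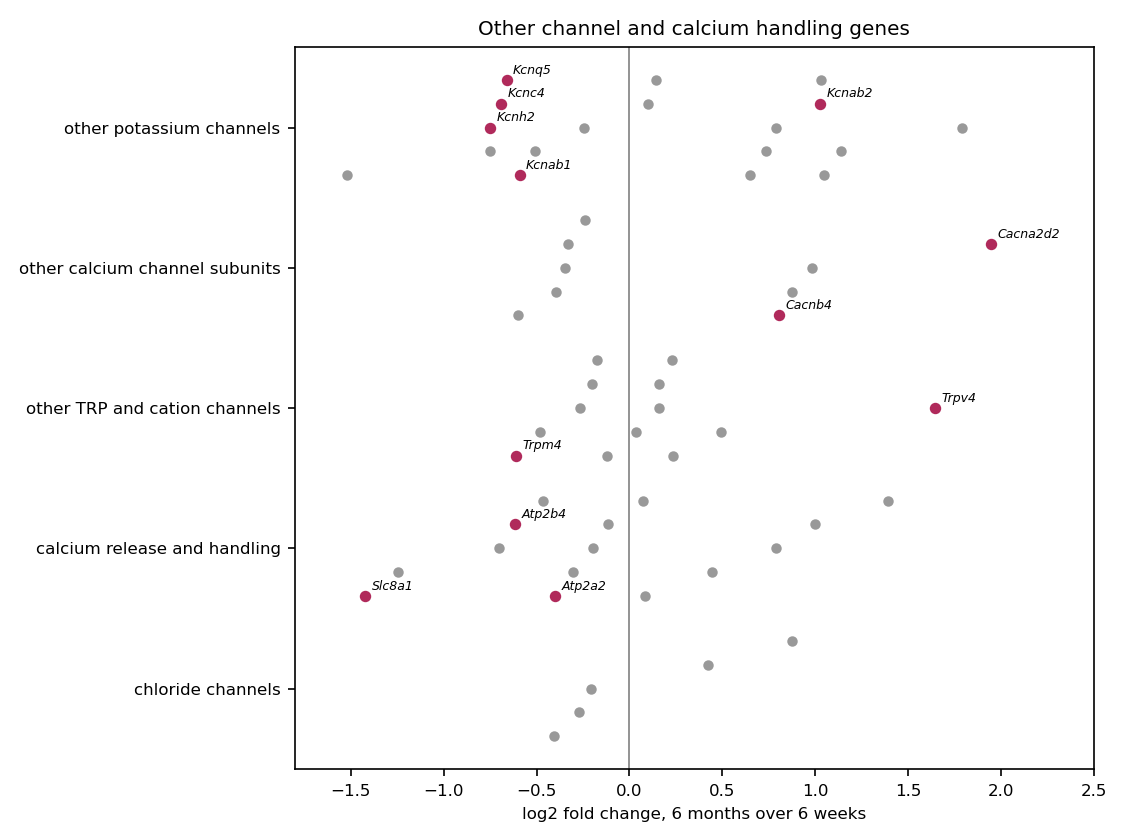
Log2 fold change, 6 months over 6 weeks, of the tested genes of other channels and calcium handling, 1 point a gene with 1 gene left out, grouped by kind and shifted vertically for legibility. Named points in red have an unadjusted edgeR p under 0.05, with 4 of them to the right of 0 and the others to the left.

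The change of the members was then set against the sum of the smooth muscle markers in each library. This sum rests most on its most abundant genes, and the markers did not all move together. Per kb of exon, Acta2 was highest in young replicate 3 (8251 CPM) and Myl9 in aged replicate 1 (4491 CPM). Expressed per 1000 CPM of the 14 smooth muscle markers, Kcnmb1 was at 6.97, 5.55 and 5.64 in young and 5.51, 5.33 and 5.25 in aged replicates 1, 2 and 3, 88.6% of the young mean, with the closest pair at 5.55 and 5.51. Kcnj8 and Abcc9 were at 157% and 131% of the young mean on this scale, and their groups did not overlap. Over all genes tested, 3.29% were lower and 13.6% were higher without overlap on this scale. Kcnma1 was at 63.6%, Cacna1c at 87.6% and Itpr1 at 93.1%, all with overlap. When edgeR was scaled to the same markers, the median of all genes moved to 0.21 (log2) and the log2 fold changes were -0.65 for Kcnma1, -0.17 for Kcnmb1, -0.10 for Itpr1, 0.65 for Kcnj8 and 0.39 for Abcc9. On that scale Kcnma1 no longer had an unadjusted p under 0.05 (adjusted p 0.534 by edgeR), and Kcnj8 did (adjusted p 0.398 by edgeR), as did 1561 genes with higher estimates (9.4%). With total counts alone the median of all genes moved to -0.22, and Kcnma1, Kcnmb1 and Itpr1 were then lower at an unadjusted p under 0.05, as were 2501 of 16612 genes (15.1%). Other cell types also differed between libraries: the 8 fibroblast markers, led by Col3a1 and Dcn, summed to 4453 to 5724 CPM in young libraries and to 10158, 3141 and 7012 CPM in aged replicates 1, 2 and 3, and the 8 macrophage markers, led by Lyz2 and C1qa, to 97.7 to 131 CPM and to 440, 135 and 289 CPM. Kcnj8 was highest in aged replicate 1, the library with the highest sums of both, and their part in its value was not tested. The 9 adipocyte markers, led by Ucp1 and Cfd, ranged from 243 to 2260 CPM and were highest in aged replicate 2.

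The libraries also differed in how long and short genes were represented, which touches the long channel genes. Relative to each gene's mean, genes with at least 8 kb of exon (2391 genes) had a median log2 deviation of -0.14 in aged replicate 1 and 0.13 in young replicate 3, and genes under 3 kb (4477 genes) had 0.18 and -0.15. Cacna1c, Itpr1 and Kcnma1 are the 3 longest members and had their lowest CPM in aged replicate 1, while Kcnj8, the shortest, had its highest there. The other members above 8 kb are shorter than the 3 longest, whose exons span 16976 (Kcnma1), 18319 (Itpr1) and 21191 (Cacna1c) bases. Abcc9, with 8373 bases of exon, had its highest CPM in aged replicate 1 (286). Cacna1h and Trpc1, with 9763 and 8030 bases of exon, had their lowest in young replicate 2. Kcna5, under 3 kb, was at 1.65 CPM in aged replicate 1, below 2.68 and 2.44 in aged replicates 2 and 3. With an offset for gene length in each library, the log2 fold changes were -0.77 for Kcnma1, -0.34 for Kcnmb1, 0.41 for Kcnj8, -0.37 for Cacna1c and -0.22 for Itpr1, and 0 genes were called.

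**Figure D5:**
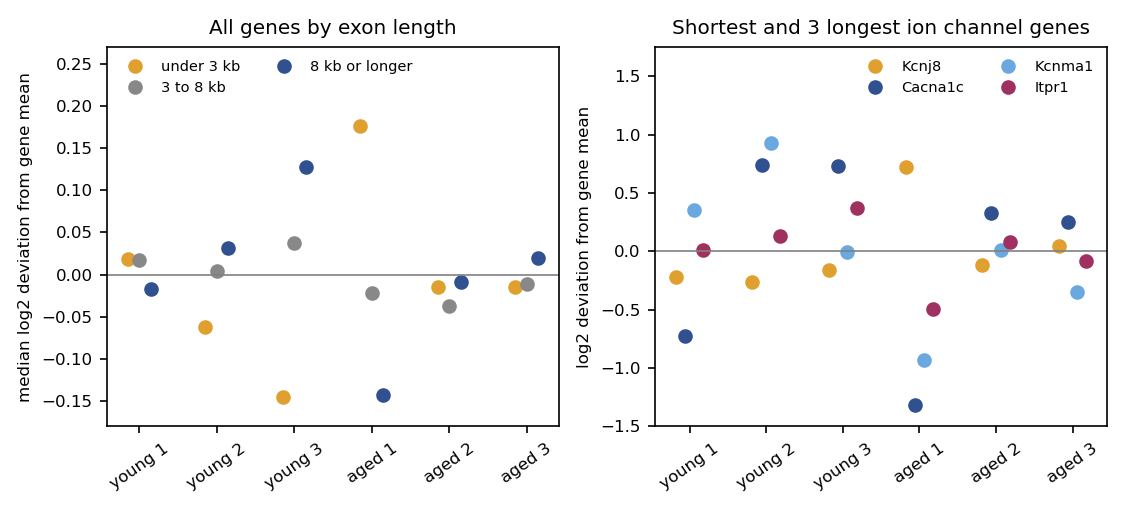
Left, the median log2 deviation from each gene's mean over the 6 libraries, for genes under 3 kb, from 3 to 8 kb and of at least 8 kb of exon, in each library. Right, the same deviation for Kcnj8, the shortest channel gene, and for Cacna1c, Kcnma1 and Itpr1, the 3 longest. In aged replicate 1 short genes lie at 0.18 and long genes at -0.14, with Kcnj8 above 0 and the 3 long channel genes below.

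For each tested member, the gene with the most similar pattern over the 6 libraries was picked by Pearson's r of log2 CPM among 14076 genes. These were Ttll5 for Kcnma1 (r = 0.993), Dpysl3 for Kcnmb1 (r = 0.993), Chst3 for Cacna1c (r = 0.994), Tnfrsf12a for Cacna1h (r = 0.974), Anxa1 for Kcnj8 (r = 0.989), Stam for Abcc9 (r = 0.974), Zfp763 for Kcna5 (r = 0.988), Kif3c for Trpc1 (r = 0.978) and Zfp236 for Itpr1 (r = 0.998). These r values describe 6 libraries, which all genes share along with their depth and composition.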

How the data were processed

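RNA of whole aorta from young and aged mice was sequenced single-ended, with 3 libraries per age. The authors deposited counts of reads per gene, not normalized, and FPKM per gene, scaled to length and library. The submitters' processing notes name the build mm10, and the aligner, counter and annotation are not given in the sources used here. Coordinates and exon lengths are those of GENCODE M21 (GRCm38), which held 55154 of 55335 identifiers. Over 19597 genes the FPKM denominator was 1.11 times the counted total.

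Counts were filtered in edgeR 4.0.16 (R 4.3.3; filterByExpr by group, minimum count 10, minimum total 15), scaled by TMM and tested by quasi-likelihood F tests without covariates, two-sided, with Benjamini-Hochberg adjustment over all genes tested and a threshold of 0.05. The fit was tested on simulated data. Intervals are at 95%. Subunit ratios were compared by exact permutation. The 5 ratios planned became 4. Totals lay between 31049632 and 45832185 counts.

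The members and lists were chosen with earlier results of these data known. The genes named are the members, the 2 most abundant genes by FPKM of each list, channel and handling genes with an unadjusted p under 0.05, the most similar gene of each member (mean of at least 1 CPM), and Xist and Ddx3y. Itpr2 and Itpr3 enter through a ratio, and Kcnj11, Abcc8 and Mrvi1 were chosen after their values were seen. A gene that this rule names is not reported here.

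The alternatives were RLE size factors, total counts, TMM without mitochondrial genes, scaling to smooth muscle markers, no filter, a minimum of 10 counts per library throughout, a block for replicate number, DESeq2 1.42.0, robust fitting, limma 3.58.1 (log2 of FPKM plus 1 or plus 0.1), young replicate 1 with aged replicate 2 left out, and each library left out in turn. The offset for gene length was chosen after seeing the data.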

Additional observations from a re-analysis of the deposited data

How the results depend on the processing

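No channel gene was called in any of the 19 alternatives, the lowest adjusted p being 0.210 (Kcnma1 and Kcnmb1, total counts, edgeR), and Kcnma1, Kcnmb1, Cacna1c and Itpr1 stayed lower and Kcnj8 and Kcna5 higher in each. Over all genes, DESeq2 called 334, and leaving out 1 library at a time gave 0 to 110 calls, 110 without aged replicate 2 (100 higher, 10 lower). Of the other channel and handling genes, DESeq2 called 1, Kcnh2. The median over the channel genes was -0.30 with total counts, 0.14 scaled by the smooth muscle markers, -0.25 with limma and a pseudocount of 0.1, and -0.17 to 0.07 with 1 library left out. The small differences of 3 genes changed sign: Cacna1h to -0.14 with total counts, -0.030 and -0.052 with limma at pseudocounts 1 and 0.1, -0.011 without young replicate 1 and aged replicate 2, and -0.052 to 0.50 with 1 library left out; Abcc9 to -0.052 with total counts and to -0.029 and -0.030 with limma; Trpc1 to 0.14 scaled by the smooth muscle markers, 0.017 with the length offset, and 0.075 without young replicate 3. The cause was not tested. Same-numbered libraries deviated together weakly (r of 0.079, 0.134 and 0.128), and libraries of different numbers had lower r, from -0.157 to 0.068. Deviations were taken from the group mean, which ties these r values together, so their contrast is partly built in. The labels name no pairing of the mice, and whether a number marks something shared was not tested. The replicate block called 0 genes and 0 channel genes. With it Kcnma1 and Cacna1c had an unadjusted p under 0.05 by edgeR, as had 1782 of 16612 genes. The p of Cacna1c was 0.0124 with the block and 0.396 without it. The pseudocount alternative for the ratio of Trpc6 to Trpc1 was not run. With 3 libraries a group, the interval of most channel genes still allows a change in either direction, and for Trpc6 the counts limit the precision. Kcna5 had 41 to 116 counts in a library. Its CV of 38.0% in young and 23.7% in aged libraries was above the 15.6% that counting gives at its lowest count.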
